A study of Mus musculus with 6 samples.

Results

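The loci of 10 genes that serve as markers or regulators of thermogenic and beige fat (Ucp1, Ppargc1a, Ppargc1b, Cidea, Elovl3, Cox7a1, Cox8b, Prdm16, Dio2 and Tmem26) were examined for open chromatin in mouse preadipocytes before differentiation. A site belonged to a locus when its summit, the base with the most transposase insertions, lay in the gene body or within 20 kb of it. The 10 genes were chosen by name out of 55450 annotated genes, and their loci held 107 of the 179254 windows compared across the libraries. ATAC-seq, in which the transposase Tn5 inserts sequencing adapters into accessible DNA, had been carried out at day 0 on cultures of preadipocytes taken from inguinal fat of C57BL/6 mice, with no age in the labels. The 3 libraries of wild type cells (WT) were compared with the 3 libraries of double knockout cells (DKO), which carry null alleles of both Hmgn1 and Hmgn2, the genes of the nucleosome binding proteins HMGN1 and HMGN2. No culture had yet received the differentiation mix, and the DKO mice, not the cultures alone, carried the deletions. The labels do not say whether the 3 cultures of a genotype came from separate mice, so p-values measure the spread between these libraries only.

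Brown and beige adipocytes burn fuel for heat. UCP1 is the mitochondrial protein that lets protons flow back across the inner membrane without ATP synthesis, and its gene is switched on by cold through adrenergic signalling. PRDM16 and the coactivators PGC-1α and PGC-1β (genes Prdm16, Ppargc1a and Ppargc1b) act on the transcription of the thermogenic and mitochondrial genes. CIDEA sits on lipid droplets, ELOVL3 elongates very long chain fatty acids, COX7A1 and COX8B are tissue-restricted subunits of cytochrome c oxidase, DIO2 converts thyroxine to its active form inside the cell, and TMEM26 is a membrane protein used as a beige cell marker. White preadipocytes express little of the thermogenic set, and the question for these libraries is which of its regulatory sites are already open at day 0 and whether they differ between the genotypes.

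Each library was deposited as a list of 299433 to 299620 summits ordered by significance. Fold enrichment is the pileup at the summit over the local background, as the peak caller gave it, and the smallest pileup listed ranged from 8 to 12 insertions, so a site that is not listed can still hold some. The 10 loci held 175, 177 and 180 summits in the WT libraries and 173, 174 and 177 in the DKO libraries, or 5.78 to 6.01 for each 10000 summits of a list. Both windows in Hmgn2 were listed in the 3 WT libraries, with pileups of 31 to 52, and in none of the DKO libraries. The Hmgn1 windows were listed in both genotypes and check nothing. Of the promoters of markers of preadipocytes, 9 of 10 had a window (Ly6a had none), against 1 of 5 for mature adipocytes (Fabp4), 2 of 5 for immune cells, 3 of 4 for endothelial cells and 0 of 5 for epithelial, neural crest and muscle markers. The endothelial gene Cdh5 had a promoter window listed in the 3 DKO libraries and in no WT library, at fold enrichments of 3.91, 7.09 and 4.26 (limma adjusted p = 0.142). The Pecam1 promoter pointed the other way, with 16.9, 12.2 and 17.2 in WT and 11.1, 11.8 and 10.3 in DKO (log2 change -0.31 ± 0.11, limma adjusted p = 0.297), and the Tek promoter had a change of -0.07 ± 0.12. Both immune promoter windows had a change above 0, at 0.85 ± 0.46 for Adgre1, listed in DKO replicates 1 and 2 alone, and 0.35 ± 0.21 for Cd68 (limma adjusted p = 0.458 and 0.476). Fold enrichments at the listed endothelial promoter windows ranged from 3.91 to 18.2, and the part of other cell types in the results was not tested.

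Sequences of distal sites described below, none of them called as different between the genotypes in the main fit, are given first. Each is the stretch around a window centre, read 5′ to 3′ on the strand of the member gene from the GRCm38 (mm10) genome. Capitals mark a match, on either strand, to the AP-1 motif TGACTCA, the C/EBP motif TTGCNNAA or the TEAD motif CATTCC. The Ucp1 site and the Prdm16 site 147904 bp downstream of its start hold no match to the 8 motifs searched, and were added after their values were seen because they are, in that order, the only window of the Ucp1 locus listed in every library and the window of the 10 loci with the smallest p.
Ucp1 upstream site, chr8:83278531-83278731 (+ strand): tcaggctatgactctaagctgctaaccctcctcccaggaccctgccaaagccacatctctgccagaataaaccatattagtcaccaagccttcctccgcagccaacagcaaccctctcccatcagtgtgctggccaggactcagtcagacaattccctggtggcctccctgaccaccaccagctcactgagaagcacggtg
Prdm16 intronic site 147904 bp downstream of the start, chr4:154488862-154489062 (- strand): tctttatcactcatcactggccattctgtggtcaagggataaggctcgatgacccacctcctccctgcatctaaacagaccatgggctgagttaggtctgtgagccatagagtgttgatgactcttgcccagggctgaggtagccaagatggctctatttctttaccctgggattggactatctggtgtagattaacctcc
Prdm16 intronic site with the highest values, chr4:154521956-154522156 (- strand): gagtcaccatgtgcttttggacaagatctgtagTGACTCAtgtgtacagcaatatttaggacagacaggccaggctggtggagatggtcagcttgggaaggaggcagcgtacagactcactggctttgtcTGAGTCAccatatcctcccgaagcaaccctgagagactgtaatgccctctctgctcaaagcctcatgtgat
Prdm16 intronic site listed only in DKO, chr4:154336683-154336883 (- strand): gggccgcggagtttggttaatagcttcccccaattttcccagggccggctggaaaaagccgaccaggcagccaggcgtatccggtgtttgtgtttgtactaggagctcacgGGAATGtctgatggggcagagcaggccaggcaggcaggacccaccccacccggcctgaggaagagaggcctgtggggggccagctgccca
Prdm16 intronic site 187416 bp downstream of the start, chr4:154449350-154449550 (- strand): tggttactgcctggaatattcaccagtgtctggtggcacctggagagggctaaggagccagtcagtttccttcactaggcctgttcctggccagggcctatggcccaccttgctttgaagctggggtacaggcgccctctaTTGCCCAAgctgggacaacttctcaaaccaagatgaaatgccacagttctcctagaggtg
Tmem26 upstream site, chr10:68705565-68705765 (+ strand): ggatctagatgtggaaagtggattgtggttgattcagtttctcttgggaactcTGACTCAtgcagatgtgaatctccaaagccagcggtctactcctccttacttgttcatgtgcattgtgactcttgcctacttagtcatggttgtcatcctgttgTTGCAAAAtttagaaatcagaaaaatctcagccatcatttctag
Tmem26 first downstream distal site, chr10:68725640-68725840 (+ strand): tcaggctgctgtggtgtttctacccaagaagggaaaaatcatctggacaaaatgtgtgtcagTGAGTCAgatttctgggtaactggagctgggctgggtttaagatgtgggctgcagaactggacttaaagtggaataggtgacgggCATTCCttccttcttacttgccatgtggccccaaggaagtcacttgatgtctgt

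The AP-1 letters stand in 23.6% of all 179254 windows of the same length, the C/EBP letters in 12.03% and the TEAD letters in 16.3%. At the 10 loci they stand in 21, 14 and 15 of the 107 windows. The other motifs searched were the CRE (TGACGTCA), found in 0 windows of the 10 loci and 0.66% of all windows, the ERR element (TCAAGGTCA), in 2 and 0.312%, the nuclear receptor half-site it contains (AGGTCA), in 20 and 13.8%, the EBF core (CCCNNGGG), in 12 and 6.77%, and the GC box (GGGGCGGGG), in 2 and 2.04%. Matches to these letters are a description of the sequence and not evidence of binding. The strongest Prdm16 intronic site holds 2 AP-1 matches, and each of the Tmem26 distal sites printed here holds 1.

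Promoter stretches are shown for comparison, cut where an annotated exon of GENCODE or RefSeq begins. The stretch at the Gbf1 start is the highest window of the Elovl3 locus, and only it holds a match (TEAD). The Elovl3, Cox7a1 and Tmem26 stretches hold none of the 8 motifs.
Elovl3 promoter, chr19:46131686-46131886 (+ strand): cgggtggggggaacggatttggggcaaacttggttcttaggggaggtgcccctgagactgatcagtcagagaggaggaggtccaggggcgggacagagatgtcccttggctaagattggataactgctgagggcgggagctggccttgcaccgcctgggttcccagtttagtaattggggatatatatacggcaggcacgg
Cox7a1 promoter, chr7:30184017-30184143 (+ strand): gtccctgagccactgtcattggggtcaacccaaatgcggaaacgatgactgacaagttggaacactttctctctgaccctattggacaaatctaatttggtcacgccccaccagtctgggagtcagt
Tmem26 promoter side, intronic, chr10:68724091-68724231 (+ strand): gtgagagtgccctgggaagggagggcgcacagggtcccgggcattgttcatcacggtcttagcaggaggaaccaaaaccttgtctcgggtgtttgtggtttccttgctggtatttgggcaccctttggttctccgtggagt
Gbf1 upstream stretch in the Elovl3 locus, chr19:46152276-46152476 (+ strand): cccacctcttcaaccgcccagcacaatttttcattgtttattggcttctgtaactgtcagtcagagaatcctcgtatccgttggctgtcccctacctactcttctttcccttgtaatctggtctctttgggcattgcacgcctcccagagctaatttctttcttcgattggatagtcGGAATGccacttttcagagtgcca

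A promoter window, with its centre within 1 kb of an annotated start, was found for 7 of the 10 genes. Those of Ppargc1b, Elovl3, Cox7a1, Prdm16, Dio2 and Tmem26 were listed in all 6 libraries, the Cidea window was listed in 4, and Ucp1, Ppargc1a and Cox8b had none that could be compared. Among 21755 protein-coding genes, 33.0% had no promoter window and 59.8% had one listed in all 6 libraries. The open promoters were of middling to low height. Percentiles compare the highest promoter window of a gene with that of every protein-coding gene that had one. The Cox7a1 promoter stood at percentile 50.4, the Elovl3 promoter at 42.3, the Ppargc1b promoter at 23.2, the Prdm16 promoter at 21.5, the Dio2 promoter at 21.2 and the Cidea promoter at 6.81, with that of Tmem26 between the last 2.

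**Figure D1:**
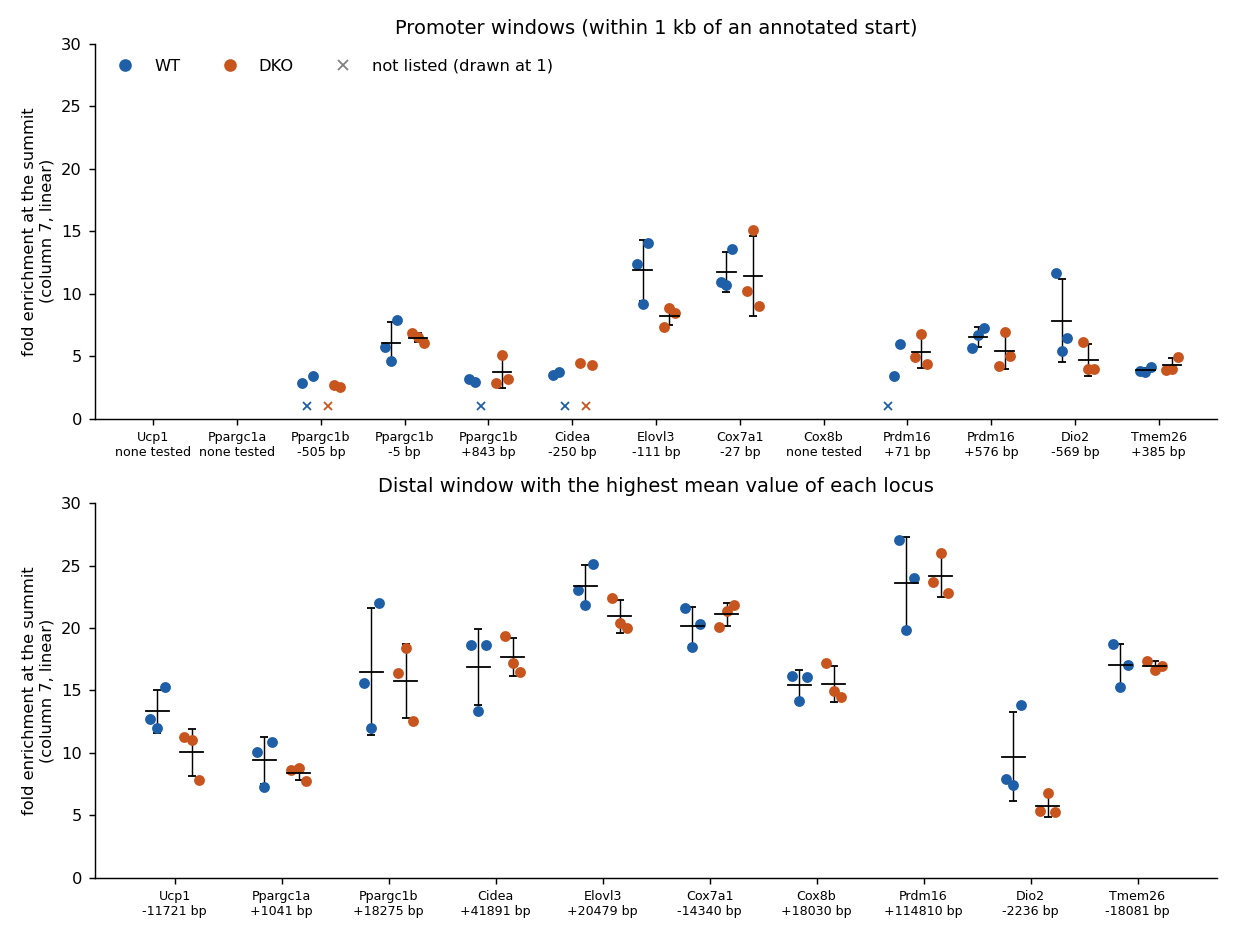
Fold enrichment (linear axis) in each WT and DKO library at the 10 promoter windows, upper panel, and at the highest distal window of each locus, lower panel. Dots are libraries, and bars are means with SD where all 3 libraries of a genotype list the window. Crosses mark libraries that do not list it. The distal windows drawn reach 27.0 and the promoter windows 15.1, but each distal window was picked as the highest of its locus. Those of Elovl3, Cox7a1 and Cox8b lie at the starts of Gbf1, Gm5113 and Psmd13. Over all tested windows the median scaled fold enrichment was 4.89 for promoter windows and 4.64 for distal ones.

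The 107 windows comprised 10 promoter windows and 97 distal ones. Of the distal windows, 60 lay in introns, 26 between genes and 11 in exons or UTRs, and 13 lay within 1 kb of the start of another gene. The windows of these loci were listed as often as windows elsewhere, with 62 of 107 (57.9%) listed in all 6 libraries against 58.0% of all windows. A further 49 windows did not enter the comparison, 48 of them because 1 library listed them. Of those 48, 16 were listed by DKO replicate 3 alone, the library with the lowest commonest background (2.05, against 2.41 to 2.58 in the others) and the lowest pileup limit (8), and the part of this in the listing counts was not tested.

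No window of the 10 loci differed between the genotypes at an adjusted p under 0.05 in limma. The counts were 0 lower and 0 higher in DKO, against 0.034% and 0.0229% of all windows. At an unadjusted p under 0.05, 5 windows were lower and 4 were higher in DKO, 4.67% and 3.74% of the 107, beside 6.1% and 5.69% of all windows. After quantile scaling, 10 windows had all DKO values below all WT values and 10 had all of them above, or 9.35% each, beside 7.67% and 8.76% of all windows. Without scaling the counts were 16 and 3, or 15.0% and 2.80%, beside 13.6% and 3.33% of all windows. No window was listed in 3 WT and 0 DKO libraries, where 1.23% of all windows were, and 2 were listed in 3 DKO and 0 WT libraries, where 1.14% were. By rank alone, 8 of the 62 windows listed in every library had all DKO ranks behind all WT ranks and 3 had them ahead, beside 10.9% and 7.75% of all such windows. These shares are near their backgrounds and are no result about the members. The median log2 change of the 107 windows was 0.10, with 42 below 0 (39.3%) and 65 above, where the median over all windows was 0.01 and 48.6% lay below 0. Without scaling the direction turned, with 65 below 0 (60.7%) and 42 above and a median of -0.07, beside 67.3% below 0 and a median of -0.14 over all windows. The absence of calls does not show that the loci are alike.

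**Figure D2:**
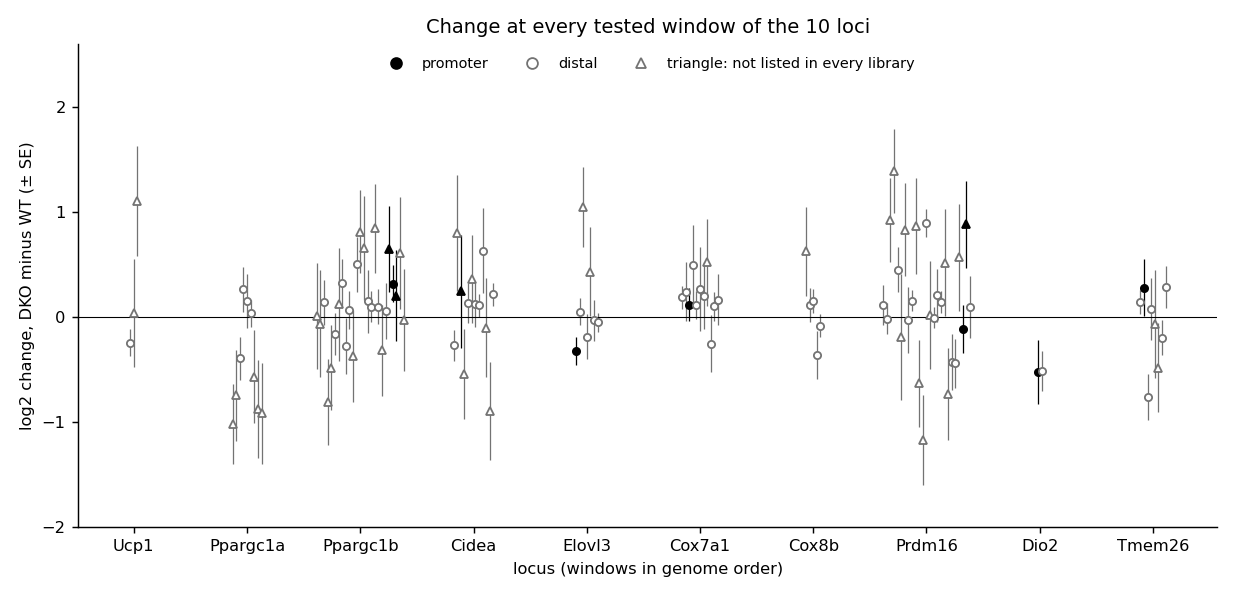
Log2 change in fold enrichment, DKO minus WT, with its standard error, at every tested window of the 10 loci in genome order. Black points are promoter windows, open points distal ones, and triangles windows that at least 1 library does not list; the points lie on both sides of 0 at most loci, with 10 of 11 Cox7a1 windows above 0 (6 of 11 without scaling) and 6 of 9 Ppargc1a windows below it (8 of 9 without scaling).

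Ucp1, the gene of the uncoupling protein itself, had no window within 1 kb of its start at chr8:83290352 on the forward strand. The only window of its locus listed in every library lay 11721 bp upstream, between genes, at chr8:83278381-83278881. Its fold enrichments were 12.7, 12.01 and 15.3 in WT and 11.2, 11.1 and 7.85 in DKO, and its pileups 45, 46 and 51 against 41, 38 and 25. All 3 DKO values lay below all 3 WT values, with the means at 13.3 ± 1.7 and 10.05 ± 1.9 (SD, n = 3 libraries each). The difference did not pass the test (log2 change -0.24 ± 0.13 SE, limma adjusted p = 0.458), and DKO replicate 3 was the lowest. Without that library the change was -0.12. Nearer the start the lists were almost empty. A summit 6103 bp upstream was listed in DKO replicate 3 alone, and a window 1735 bp downstream, in an intron, was listed weakly in WT replicate 2 (3.13) and DKO replicate 3 (3.28). A window 19738 bp downstream was listed only in DKO replicates 2 and 3, at 3.68 and 5.57 (limma adjusted p = 0.442).

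Ppargc1a, which encodes PGC-1α, the coactivator of mitochondrial biogenesis induced by cold, had no window within 1 kb of its start that could be compared. A window 37 bp upstream of the start was listed in DKO replicate 1 alone, at a fold enrichment of 3.21 and a pileup of 16, and was not tested. The highest window of the locus missed the 1 kb limit by 41 bp. It was centred 1041 bp downstream of the start in an intron, at chr5:51552600-51553100, and 234 bp downstream of a start in a predicted RefSeq transcript model. Fold enrichments there were 10.1, 7.29 and 10.9 in WT and 8.61, 8.77 and 7.78 in DKO, and the groups overlapped (log2 change 0.03 ± 0.13, limma adjusted p = 0.969). Of the 9 tested windows of the locus, 6 had a change below 0. The one with the smallest p lay between genes, past the 3′ end, at chr5:51445568-51446068. It had 6.42, 5.41 and 6.16 in WT, 3.35 and 3.60 in DKO replicates 1 and 3, and was not listed in DKO replicate 2 (log2 change -1.02 ± 0.38, limma adjusted p = 0.32). Without DKO replicate 2 the change was -0.59. An intronic window 55510 bp downstream of the start had 7.01, 7.40 and 8.51 in WT and 5.87, 4.25 and 5.24 in DKO (log2 change -0.40 ± 0.20, adjusted p = 0.458), again with no overlap.

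Ppargc1b, which encodes PGC-1β, the relative of PGC-1α, lies on chromosome 18 and was among the more densely covered loci. Its 25 tested windows amounted to 17.6 for each 100 kb, where the median protein-coding gene had 11.1. The window on its start (chr18:61400155-61400655, 5 bp upstream, in the 5′ UTR) had fold enrichments of 5.76, 4.62 and 7.85 in WT and 6.84, 6.53 and 6.07 in DKO. These raw values overlapped, and after quantile scaling the DKO values of 7.17, 6.67 and 6.91 lay above the WT values of 5.45, 5.02 and 6.28 (log2 change 0.32 ± 0.18, adjusted p = 0.46). Its flanking promoter windows, 505 bp upstream and 843 bp downstream, had changes of 0.20 and 0.65, with standard errors of 0.43 and 0.41. The latter was 0.32 without WT replicate 3 and 0.17 when summits within 500 bp of the window centre were counted. The highest distal window lay in an intron 18275 bp downstream of the start, with 15.6, 11.97 and 22.0 in WT and 16.4, 18.4 and 12.6 in DKO (log2 change 0.10 ± 0.15). A weak window 135 bp from Mir378a, a microRNA gene hosted by the same transcript, was listed in WT at 3.11, 2.58 and 3.11 and in DKO replicate 1 alone at 2.90 (log2 change -0.32 ± 0.44).

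Prdm16, the zinc finger factor that directs precursors towards the brown and beige fate, had the largest locus, with 25 tested windows on the reverse strand of chromosome 4, 6.93 for each 100 kb. Its highest window, in an intron 114810 bp downstream of the start (chr4:154521806-154522306), was also the highest of all 10 loci. It had 27.0, 19.9 and 24.0 in WT and 23.7, 26.0 and 22.8 in DKO, and stood within the first 2.32% of every list by −log10 p. The groups overlapped there (log2 change 0.14 ± 0.11, adjusted p = 0.603), and the change was 0.07 without WT replicate 3 and 0.25 without WT replicate 1. The promoter was low by comparison. The window 576 bp inside the gene had 5.66, 6.65 and 7.24 in WT and 4.23, 6.93 and 4.97 in DKO (log2 change -0.11 ± 0.23), and the window 71 bp inside it, in the 5′ UTR, was not listed in WT replicate 1 and had 3.42 and 5.99 in the other WT libraries and 4.89, 6.78 and 4.35 in DKO (log2 change 0.88 ± 0.41, adjusted p = 0.438). Without WT replicate 1 the change at the latter was 0.39.

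The window with the smallest p of the 10 loci was intronic in Prdm16 as well, 147904 bp downstream of the start at chr4:154488712-154489212. It had fold enrichments of 7.88, 6.83 and 12.03 in WT and 15.4, 15.1 and 12.7 in DKO, from pileups of 26, 23 and 40 against 61, 57 and 40. The DKO values were all above the WT values, with the lowest DKO value (12.7, replicate 3) near the highest WT value (12.03, replicate 3) and equal to it in pileup. The site stood 34.2%, 33.2% and 25.6% down the WT lists and 8.95%, 10.5% and 11.2% down the DKO lists. The log2 change was 0.90 ± 0.13, with an unadjusted p of 4.68e-05 and an adjusted p of 0.0582 in limma, just short of the threshold. The adjusted p was 0.0204 with median centring, 0.034 with −log10 p as the value, 0.00236 among windows listed in all 6 libraries and 0.0138 without the window filter, and 0.199 to 0.27 when a library was left out; over all alternatives it ranged from 0.00236 to 0.437.

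Other windows of Prdm16 went both ways. A window 300083 bp downstream of the start (chr4:154336533-154337033), in an intron and 656 bp from the start of B230104I21Rik, so described as lying at that gene, was unlisted in all 3 WT libraries and had 5.72, 3.08 and 3.20 in DKO (log2 change 1.39 ± 0.40, limma adjusted p = 0.189). Its value in WT is the lowest fold enrichment of the list, so the change depends on that substitute. A window 301981 bp downstream had 3.80 and 6.16 in WT replicates 1 and 3, none in WT replicate 2, and 5.69, 5.57 and 4.94 in DKO (log2 change 0.92 ± 0.40, adjusted p = 0.409), and without WT replicate 2 the change was 0.43. A window 187416 bp downstream pointed the other way, with 4.38, 4.55 and 6.46 in WT and 3.97 in DKO replicate 2 alone (log2 change -1.17 ± 0.43, limma adjusted p = 0.312). Its values in DKO replicates 1 and 3 are such substitutes too. The change was -0.78 with −log10 p as the value and -0.47 with the pileup.

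**Figure D3:**
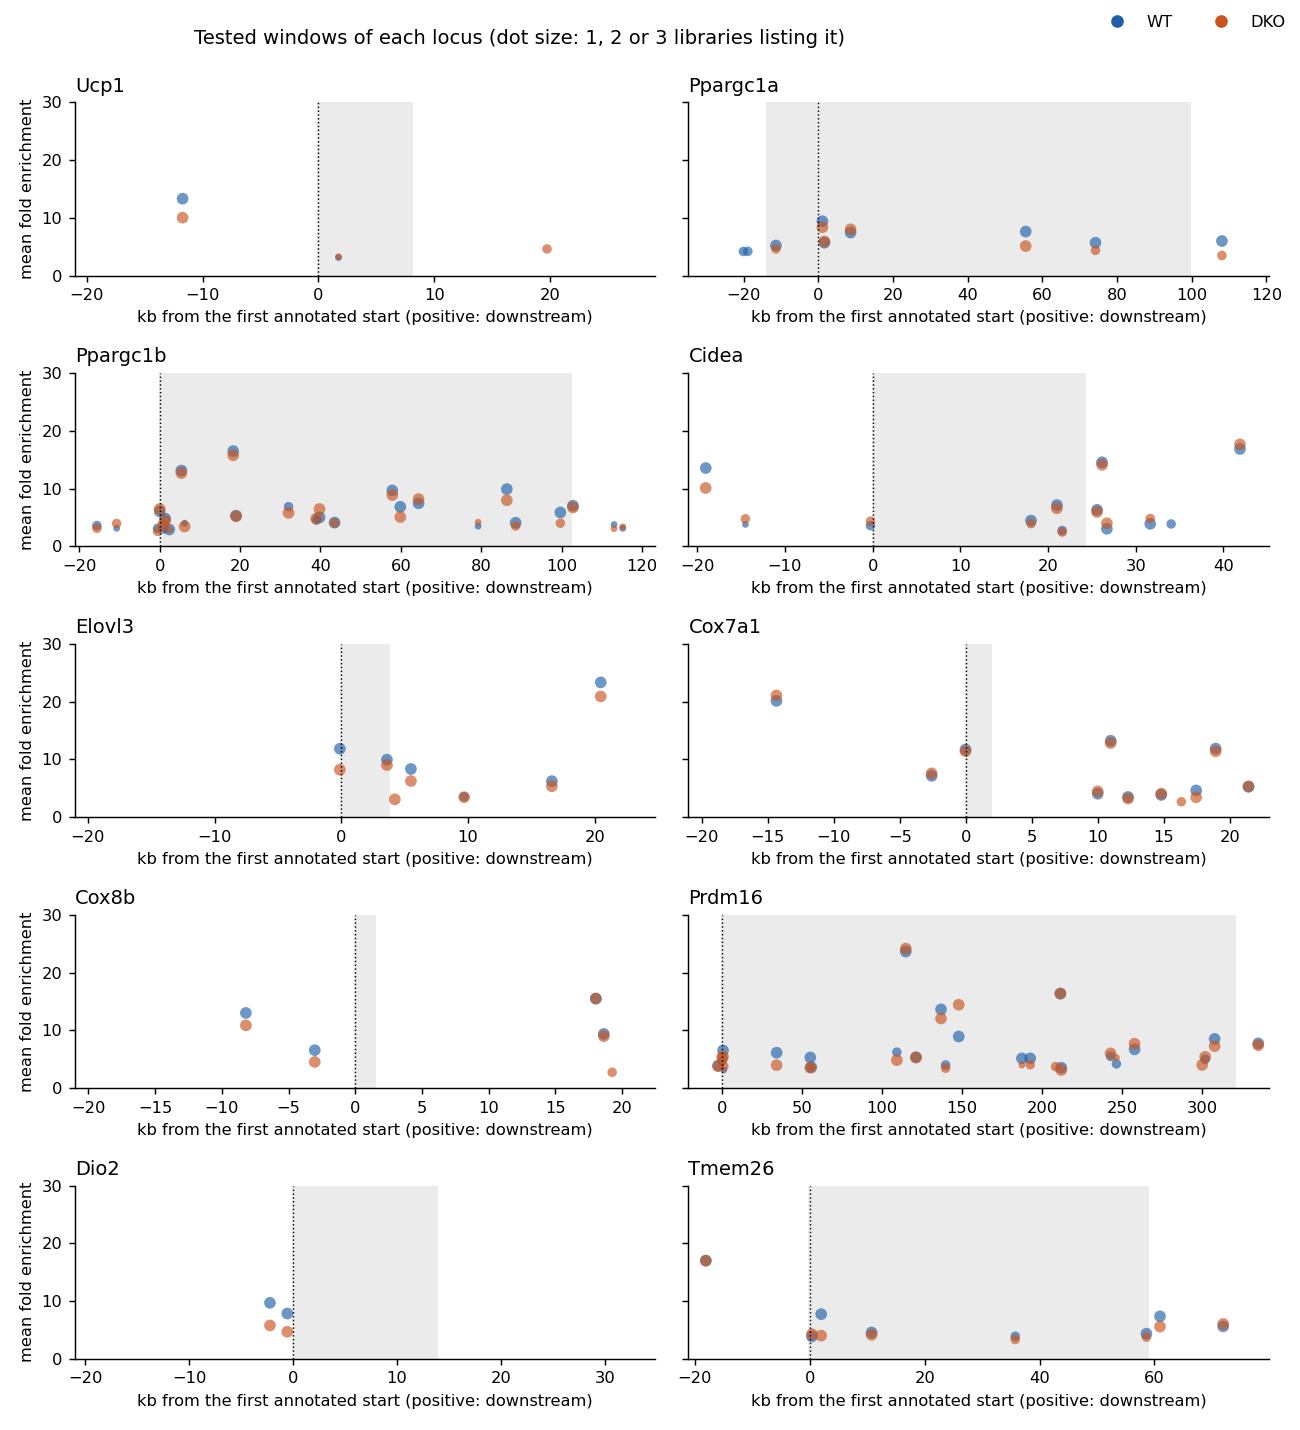
Mean fold enrichment of the libraries listing each tested window, by genotype, against the distance from the first annotated start of each gene; the gene body is shaded and dot size gives how many of the 3 libraries list the window. The 3 highest distal sites stand 114810 bp past the start of Prdm16, 20479 bp past that of Elovl3 and 14340 bp before that of Cox7a1. The Elovl3 site lies 133 bp from the start of Gbf1, and the Cox7a1 site 71 bp from that of Gm5113.

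Cidea, the lipid droplet protein of brown fat, also lies on chromosome 18 and had the lowest promoter of the 7 genes with a promoter window. Its window 250 bp upstream of the start, in an exon of the neighbouring gene B430212C06Rik and 229 bp from that gene's start, had 3.50 and 3.70 in WT replicates 1 and 2 and 4.47 and 4.26 in DKO replicates 1 and 3, and was unlisted in WT replicate 3 and DKO replicate 2. The fit gave 0.24 ± 0.54. Strong sites lay away from the gene. The highest, between genes 41891 bp downstream of the start (chr18:67385245-67385745), had 18.7, 13.3 and 18.7 in WT and 19.4, 17.2 and 16.4 in DKO (log2 change 0.21 ± 0.11, adjusted p = 0.458).

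Elovl3, the fatty acid elongase, had a promoter window 111 bp upstream of its start (chr19:46131536-46132036). It had 12.4, 9.15 and 14.03 in WT and 7.36, 8.84 and 8.47 in DKO, and every DKO value was below every WT value, with means of 11.9 ± 2.5 and 8.22 ± 0.77 (SD, n = 3). The log2 change of -0.33 ± 0.13 had an unadjusted p of 0.0343 and an adjusted p of 0.376 in limma. A weak window 4228 bp downstream, in a coding exon of the neighbouring gene Pitx3, was listed in all 3 DKO libraries, at 3.08, 2.69 and 3.53, and in no WT library (log2 change 1.05 ± 0.38, adjusted p = 0.309). Its change turned to -0.23 when summits within 500 bp of the window centre were counted. The highest window of the locus was the Gbf1 promoter, 133 bp from the Gbf1 start, at 23.1, 21.9 and 25.2 in WT and 22.4, 20.4 and 19.99 in DKO.

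Cox7a1 and Cox8b, subunits of the respiratory chain's last complex, differed in promoter state. The Cox7a1 promoter (chr7:30183867-30184367, 27 bp upstream of the start) had 10.9, 10.7 and 13.6 in WT and 10.2, 15.1 and 8.996 in DKO (log2 change 0.11 ± 0.16), and the groups overlapped. In its gene-dense locus, 10 of 11 windows had a positive change with a median of 0.19, against 6 of 11 and 0.01 without scaling, and none was called. The highest was 71 bp from the start of Gm5113, at 21.6, 18.5 and 20.3 in WT and 20.1, 21.4 and 21.8 in DKO. Cox8b had no promoter window, and its nearest summit, 1091 bp upstream of the start, was listed in WT replicate 1 alone. The highest site of its locus belonged to the Psmd13 promoter next to Sirt3 (16.2, 14.1 and 16.1 in WT, 17.2, 14.9 and 14.5 in DKO), and a site 8199 bp upstream, between genes, had 13.0, 11.3 and 14.6 in WT and 10.6, 12.1 and 9.83 in DKO (log2 change -0.08 ± 0.11). A nearer site, 3039 bp upstream and between genes, had 6.72, 6.50 and 6.46 in WT and 4.06, 4.25 and 5.24 in DKO (log2 change -0.36 ± 0.23, limma adjusted p = 0.495). The groups there overlapped after scaling.

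Dio2, the deiodinase that supplies active thyroid hormone, had its promoter window 569 bp upstream of the GENCODE start (chr12:90738757-90739257), and 31 bp downstream of the RefSeq start at position 90739038. Fold enrichments there were 11.7, 5.41 and 6.46 in WT and 6.15, 3.97 and 3.93 in DKO (log2 change -0.53 ± 0.30, adjusted p = 0.465), and the groups overlapped. WT replicate 1 was the highest, and without it the change was -0.20. A window 100 bp inside the gene was listed in DKO replicate 2 alone, at 3.12, and was not tested. The window 2236 bp upstream of the GENCODE start, in an intron of Gm26512, had 7.88, 7.40 and 13.8 in WT and 5.31, 6.80 and 5.24 in DKO, with no overlap (log2 change -0.52 ± 0.19, limma adjusted p = 0.308). Without WT replicate 3 that change was -0.34. Of the 5 windows of the locus these were the 2 tested, and neither passed the test.

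Tmem26, the beige surface marker, had a weak promoter window 385 bp inside the gene, at 3.80, 3.70 and 4.11 in WT and 3.91, 3.97 and 4.92 in DKO (log2 change 0.28 ± 0.27, and 0.13 without DKO replicate 3). Its highest site, 18081 bp upstream and between genes (chr10:68705415-68705915), had 18.7, 15.3 and 17.1 in WT and 17.4, 16.7 and 16.9 in DKO (log2 change 0.14 ± 0.11, and 0.04 without WT replicate 3). The window 1994 bp downstream of the start, in an intron (chr10:68725490-68725990), had 6.13, 8.25 and 8.81 in WT and 4.19, 4.25 and 3.60 in DKO. All DKO values were below all WT values, with means of 4.02 ± 0.36 and 7.73 ± 1.4 (SD, n = 3), and the log2 change of -0.76 ± 0.22 had an unadjusted p of 0.00576 and an adjusted p of 0.19.

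**Figure D4:**
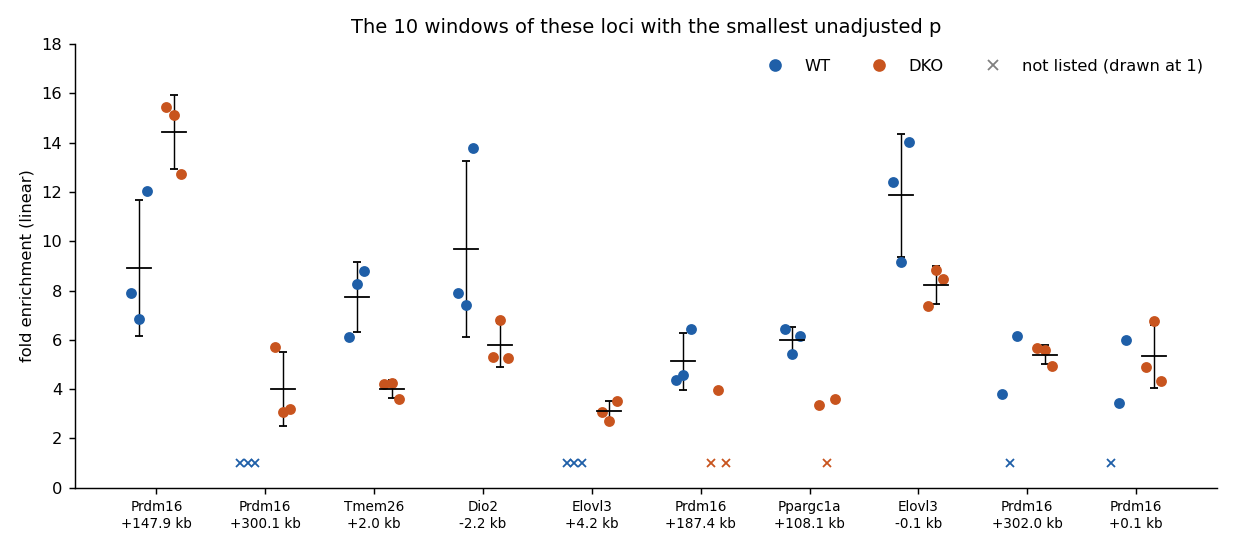
Fold enrichment (linear axis) in each library at the 10 windows of these loci with the smallest unadjusted p, ordered by p, with means and SD where all 3 libraries list the window and crosses for libraries that do not. The Prdm16 window at the left reads 6.83 to 12.03 in WT and 12.7 to 15.4 in DKO, and 2 windows are listed in DKO only.

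A further 40 thermogenic genes, from a list that was drawn up with earlier results of these data known, were compared in the same way. Of these, 36 had a promoter window and 27 had their highest one listed in all 6 libraries, and 0 of their 70 promoter windows were called lower and 0 higher. At an unadjusted p under 0.05, 0 were lower and 8 higher in DKO, 0% and 11.4% of the 70, beside 6.1% and 5.69% of all windows. Without scaling the counts were 2 and 2, or 2.86% each, beside 9.31% and 2.302% of all windows. The 8 lay at Gk, Gatm, P2rx5, Esrra, Hadha and Tfam, with 2 at Acadm. Those at Esrra, Hadha, P2rx5 and Tfam, and 1 of those at Acadm, were not the highest promoter window of the gene. The highest promoter windows had changes of -0.19 ± 0.09 at Esrra, -0.16 ± 0.13 at Hadha, 0.28 ± 0.20 at P2rx5 and 0.06 ± 0.11 at Tfam. Gatm, which encodes the first enzyme of creatine synthesis, had 5.55, 5.41 and 9.39 in WT and 7.55, 7.37 and 9.74 in DKO (log2 change 0.50 ± 0.20, limma adjusted p = 0.368). Acadm, a medium-chain fatty acid dehydrogenase, had 19.9, 18.8 and 24.2 in WT and 22.8, 24.3 and 21.3 in DKO at its highest window (log2 change 0.24 ± 0.09, limma adjusted p = 0.313). Pdk4, which restrains glucose oxidation, had 16.5, 15.8 and 17.96 in WT and 13.8, 12.6 and 12.1 in DKO (log2 change -0.23 ± 0.11, adjusted p = 0.433). The promoters of Cpt1b, Kcnk3, Bmp8b and Lhx8 had no window, and the median change over the highest promoter window of the 36 genes was 0.02.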

How the data were processed

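Per the labels and the study's methods, the authors trimmed reads, aligned them to mm10 and called peaks with MACS2, removing duplicates and mitochondrial reads. The submitters' processing notes name bcl2fastq 2.17, cutadapt 1.18, Bowtie2 2.3.4.3 and MACS2. Per the file names, the deposited lists keep up to 300000 summits at a p of 0.01 for each library. The deposited values are a fold ratio over background and the −log10 p and q of each summit. Depth is unknown, and the pileup was solved from the deposited ratio and p, giving a whole number for 100% of summits (within 0.01 in −log10 p).

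Summits were joined into 501 bp windows, kept where at least 2 libraries listed a summit with q under 0.01. A library not listing a window got its lowest listed fold enrichment. Log2 values were quantile scaled and compared in limma 3.58.1 (R 4.3.3) with a trended prior, adjusting over all 179254 windows. The pileup solution and the limma fit were also run on simulated data, and the outcomes are not given here. Annotation was GENCODE M21 basic, with promoters within 1 kb of a start. Windows named were all promoter windows, the highest distal window of each gene, those called, those listed in 3 libraries of one genotype and none of the other, and the 10 with the smallest p. Sequences follow the same rule where the stretch holds a motif or a promoter outside exons, other than on the chromosome of Ppargc1b and Cidea. Members and lists were chosen with earlier results of these data known. Python 3.11.15 was used.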

Additional observations from a re-analysis of the deposited data

How the results depend on the processing

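No count of called windows at the 10 loci moved except that 1 window, the Prdm16 intronic site 147904 bp downstream of the start, passed the threshold (log2 change) with median centring (0.92), −log10 p as the value (1.48), windows listed in all 6 libraries (0.90) and no window filter (0.90), a count of 1 higher in DKO each time, beside 0.0636%, 0.0335%, 0.284% and 0.0397% of all windows. The cause was not tested. Libraries with the same replicate number showed no shared deviation after scaling (correlations of deviations 0.0054, -0.0115 and -0.0071). That does not show whether they were prepared together, which the labels do not say. A replicate block called 0 windows in either direction at the 10 loci, as it did over all windows (0%). With it, 5 were lower and 3 higher at an unadjusted p under 0.05, or 4.67% and 2.80%, beside 5.37% and 4.78% of all windows. Windows with all DKO values below or above all WT values numbered 16 and 3 without scaling. Among windows listed in all 6 libraries they numbered 8 and 5 (12.9% and 8.06%, beside 8.22% and 9.43% of all such windows). With the 100000 best summits they numbered 2 and 3 (1.87% and 2.80%, beside 2.75% and 4.01%). With a library left out they ranged from 11 to 16 below and from 13 to 23 above, where the shares of all windows ranged from 11.3% to 13.7% below and from 12.2% to 14.6% above. They were higher above without WT replicate 1 (18), DKO replicate 1 (17), DKO replicate 2 (23) and DKO replicate 3 (17), and higher below without WT replicate 3 or DKO replicate 1 (16 each). The 23 above without DKO replicate 2 were 21.5% of the 107, beside 14.6%. Leaving out a library, which asks less of the groups, gave 0 to 2 windows listed only in WT and 2 to 4 only in DKO, or up to 1.87% and 3.74%, beside 2.16% to 2.45% and 1.80% to 2.21% of all windows; summits within 500 bp gave 1 only in DKO and the 100000 best summits 0, beside 1.04% and 0.356%. Those best summits left 2 genes with a promoter window in every library and 5 with none, and a 2 kb promoter left 1 with none, adding Ppargc1a and Ucp1. Promoter windows of the other thermogenic genes called higher in DKO numbered 1 of 70 without the trended prior, beside 1.14% of all windows. Each list stops near 300000 summits, where the lowest −log10 p was 3.54 to 5.63, so an unlisted site may still have a p under 0.01.

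Of 27 named windows, 18 kept their direction in each of the 15 to 17 alternatives that gave them a value. Each of these 18 moved by over 1.5 times in at least 1 alternative, 11 with a library left out, 9 with −log10 p and 8 without scaling, where the Ucp1 site was at -0.42, the Elovl3 promoter at -0.51 and the Ppargc1b start window at 0.12. The 24 reversals, none past the threshold, lay at 9 windows with small or uncertain changes. Without scaling the Ppargc1a first-intron window fell to -0.15, the Ppargc1b highest distal window to -0.0375, its upstream promoter window to -0.15 and the Cox7a1 promoter to -0.0645; with −log10 p the values were -0.0835 for Ppargc1a, -0.0401 for the Ppargc1b upstream promoter window and -0.0583 for the Tmem26 upstream site; with pileup -0.12 for Ppargc1a, -0.11 for Tmem26 and 0.0334 for the inner Prdm16 promoter window; with the narrower summit distance -0.13 for Ppargc1a and -0.11 for the Ppargc1b upstream promoter window; with no filter -0.24 for the latter; with summits within 500 bp -0.23 for the Elovl3 downstream window; with median centring 0.0289 for the Gbf1 window. With a library left out, changes ranged from -0.0321 to 0.099 (Ppargc1a), -0.0133 to 0.24 and -0.0029 to 0.467 (Ppargc1b distal and upstream promoter), -0.17 to 0.79 (Cidea promoter), -0.0662 to 0.215 (Cox7a1 promoter) and -0.278 to 0.0557 (Prdm16 inner promoter).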
